A study of Mus musculus with 79 samples.

Results

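The receptors with which monocytes and macrophages sense chemotactic proteins, Ccr1, Ccr2, Ccrl2, Cx3cr1 and Cxcr4, were followed through early nerve repair in the mouse. They were taken by symbol from each of the count tables, as 5 of 23361 genes. All animals were S100β-GFP mice, in which a human S100β promoter drives green fluorescent protein and so marks Schwann cells. Strain background and age are not given in the labels used here. In the delayed repair group the tibial nerve had been without axons for 8 weeks when the common peroneal nerve was cut and joined to it, and in the immediate repair group the repair was made without that interval. Animals of the immediate group had the site opened and closed at the start of the same interval. The regenerative bridge, the tissue that grows between the stumps inside a silicone tube, was taken from single animals without pooling. From it, 1000 macrophages and 1000 GFP+ cells per library were sorted 5 or 14 days after repair, and the distal stump was taken whole at day 5. The stump libraries carry distal stump as their cell type label, whereas their tissue label is the regenerative bridge, as for the sorted cells, so their tissue rests on the cell type label and the study's methods.

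The data comprise 79 libraries from 32 animals, and 31 animals gave both sorted cell types. The macrophage libraries numbered 9 delayed and 8 immediate at day 5, and 7 and 8 at day 14. The GFP+ libraries, labelled Schwann cells, numbered 9 and 7 at day 5, and 7 and 8 at day 14. The distal stump gave 9 delayed and 7 immediate libraries. Library totals were 14928745 to 28499407 counts in macrophages, 11614940 to 30796823 in GFP+ cells and 3898778 to 9212709 in the stump. Levels are given as CPM, counts scaled to a common library total, on which 3 counts correspond to 0.0974 to 0.258 CPM in the sorted cells and 0.326 to 0.769 CPM in the stump. Counting error is therefore small beside the spread between animals for each member except Cx3cr1 and Ccr2 in the lowest sorted libraries. Sorted-cell libraries were made from amplified cDNA and stump libraries from rRNA-depleted RNA, so levels are set side by side between them but not tested.

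Chemokine receptors couple to inhibitory G proteins and steer cells up a gradient of their ligand. Ccr2, the receptor for Ccl2 and Ccl7, brings inflammatory monocytes out of the bone marrow and into injured tissue. Ccr1 binds Ccl3, Ccl5, Ccl6 and Ccl9 and acts on monocytes and neutrophils. Cx3cr1 binds fractalkine (Cx3cl1) and marks patrolling monocytes and many resident macrophages. Cxcr4 binds Cxcl12, holds leukocytes in the marrow and is also used by migrating dendritic cells and by non-immune cells. Ccrl2 is an atypical receptor that binds chemerin (Rarres2) without driving migration and is induced by inflammatory stimuli. In the injured nerve, monocytes recruited from the blood become most of the macrophages that clear myelin and fill the bridge.

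In GENCODE M21 on GRCm38, Ccr1 lies at chr9:123962124-123968692 and Ccr2 at chr9:124101950-124113557, within a run of chemokine receptor genes that also holds Ccr9, Cxcr6, Xcr1 and Ccr3. Ccrl2 (chr9:111054486-111057519) and Cx3cr1 (chr9:119901616-120069879) lie farther off on the same chromosome, 12909 kb and 3980 kb from Ccr1 by midpoint (gene centre). Cxcr4 is on chromosome 1 (chr1:128588199-128592293). All are protein-coding, on the minus strand except Ccr2. Genes of this family resemble each other in sequence, so reads from shared stretches could be divided between them, and how the counting treated such reads is not given in the sources used here.

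The promoters of Cxcr4 and Ccrl2 are shown because these members passed the test in the distal stump, and that of Ccr1 because it differed most between repair groups in the GFP+ cells. Each is the 250 bases before an annotated RefSeq start (GRCm38.p6), read 5′ to 3′ on the minus strand, and capitals mark the motif matches found. All 5 members matched a RefSeq promoter entry, and Ccrl2 has 3 starts there, of which the farthest upstream is printed.
Cxcr4 chr1:128592300-128592549: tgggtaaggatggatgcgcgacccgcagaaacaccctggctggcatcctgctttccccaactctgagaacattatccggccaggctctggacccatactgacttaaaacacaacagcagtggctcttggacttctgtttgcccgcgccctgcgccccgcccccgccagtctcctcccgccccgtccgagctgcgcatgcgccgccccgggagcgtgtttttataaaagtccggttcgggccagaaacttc
Ccrl2 chr9:111057519-111057768: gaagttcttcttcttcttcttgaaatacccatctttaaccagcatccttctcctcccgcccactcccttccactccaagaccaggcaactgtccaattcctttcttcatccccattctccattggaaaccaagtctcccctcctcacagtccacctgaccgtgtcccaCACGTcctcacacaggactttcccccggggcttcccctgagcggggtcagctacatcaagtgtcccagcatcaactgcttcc
Ccr1 chr9:123968693-123968942: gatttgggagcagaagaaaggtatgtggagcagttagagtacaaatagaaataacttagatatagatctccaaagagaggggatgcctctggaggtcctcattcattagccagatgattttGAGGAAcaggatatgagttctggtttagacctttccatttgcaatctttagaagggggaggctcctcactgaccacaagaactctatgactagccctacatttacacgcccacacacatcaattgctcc

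Motifs of 5 factors were searched on both strands in these windows. They were GAGGAA (the core bound by PU.1, the factor that macrophage genes depend on), TGANTCA (AP-1), GGG, any 2 bases and then TTTCC (NF-kappaB), TTGCNNAA (C/EBP) and ACGTG (the hypoxia response core). The Ccr1 window held 1 GAGGAA, starting 129 bases before the start site, and 23.3% of the 32851 promoters of this length held that motif. The Ccrl2 window held 1 ACGTG, read on the other strand as CACGT and starting 82 bases before the start, against 16.6% of all promoters. The AP-1, NF-kappaB and C/EBP motifs, present in 6.75%, 1.41% and 9.56% of all promoters, had no match in any window of a member. The windows of Cxcr4, Ccr2 and Cx3cr1 held none of the 5. These are matches of letters and not measured binding.

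The labelled identities were checked against defining genes before the receptors were read. Emr1, the gene of F4/80, was at 850.3 to 1544 CPM in the macrophage libraries, where Sox10 and S100b did not exceed 1.75 CPM. The GFP+ libraries held genes of both Schwann cells and dendritic cells. At day 5 S100b was at 0 to 8.55 CPM with delayed and 0.592 to 24.7 CPM with immediate repair, and Sox10 at 0 to 82.4 and 14.7 to 161 CPM. At day 14 S100b was at 3.09 to 49.5 and 0.903 to 16.8 CPM and Sox10 at 13.7 to 153 and 42.7 to 199 CPM. In the whole stump, S100b was at 1.75 to 17.2 and 98.7 to 366 CPM and Sox10 at 7.12 to 60.6 and 59.6 to 143 CPM. Dendritic cell genes were at high level in the GFP+ libraries of both days, with Flt3 at 254 to 1124 CPM against at most 5.94 CPM in macrophages. The antibodies used to discard unwanted cells covered neutrophils, eosinophils, lymphocytes, fibroblasts, endothelium and red cells but not dendritic cells. The libraries labelled Schwann cells are therefore called GFP+ libraries here, and a receptor level in them is not read as a Schwann cell level.

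In bridge macrophages, Ccr1 and Ccrl2 were the members with the highest level per length and Cx3cr1 the one with the lowest. Ccr1 ranged from 262 to 847 CPM over the 32 libraries and Ccrl2 from 135 to 873 CPM. Cxcr4 stayed between 14.8 and 52.8 CPM, Ccr2 between 7.92 and 96.0 CPM, and Cx3cr1 between 0 and 36.0 CPM with 1 library at 0. Ccr1 was thus the steadiest member, its highest library 3.24 times the lowest, and Ccr2 the most variable of those never at 0, at 12.1 times. Compared per length, as CPM per kb of exon, day 5 delayed macrophages held 220.4 ± 31.1 (SD) for Ccr1, 162 ± 55.8 for Ccrl2, 13.8 ± 4.22 for Cxcr4, 6.8 ± 3.6 for Ccr2 and 0.606 ± 0.522 for Cx3cr1. The lengths join all GENCODE M21 exons of a gene, 6760 bases for Ccr2 and 1808 for Cxcr4, whereas reads were aligned with UCSC gene models. By mean CPM Ccr2 lay above Cxcr4 in that group, at 46.0 and 24.9. Per kb, the order of Ccr1 and Ccrl2 turned between groups. Ccr1 was above Ccrl2 in 8 of 9 delayed and 2 of 8 immediate libraries at day 5, and in 3 of 7 and 7 of 8 at day 14. Both lay above Cxcr4 in every macrophage library.

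**Figure D1:**
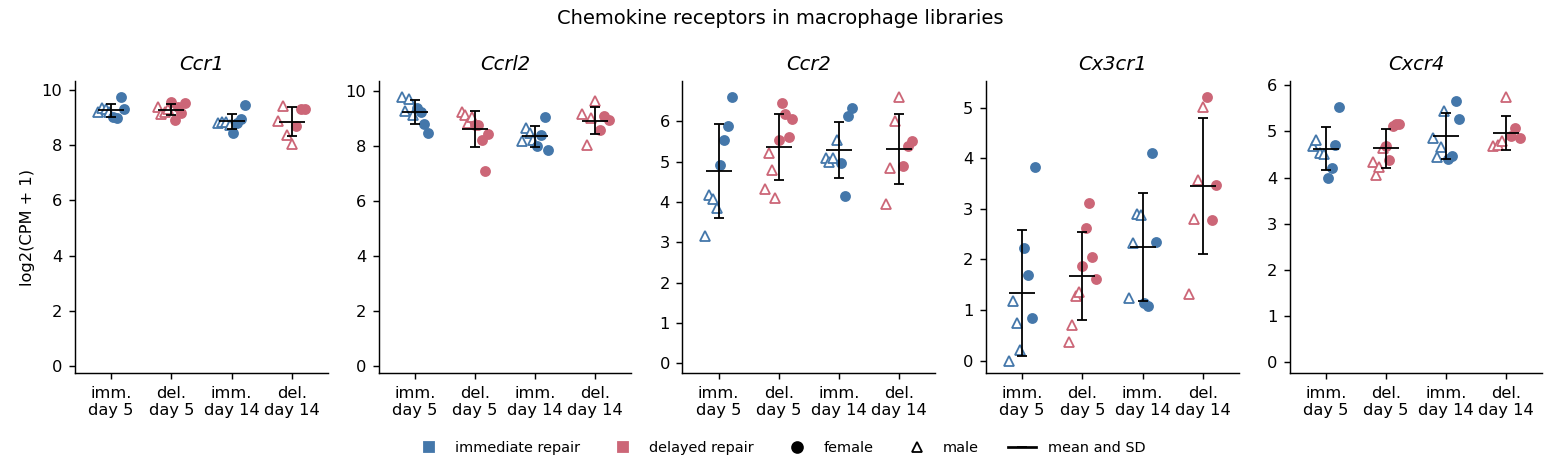
Levels of the 5 receptors in each macrophage library, as log2(CPM + 1), by day and repair; filled circles are female and open triangles male animals, blue immediate and red delayed repair, and black marks give the mean and SD. Ccrl2 at day 5 lies below the immediate mean in all 9 delayed libraries, and Ccr2 at day 5 is higher in the 9 females than in the 8 males of its repair group.

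Macrophages and GFP+ cells from the same bridge were compared next. Ccr1 and Ccrl2 were lower in the GFP+ cells in every animal, 16 of 16 at day 5 and 15 of 15 at day 14. Ccr1 had a median of 626 CPM in macrophages and 40.6 CPM in GFP+ cells at day 5, and of 454 and 62.4 CPM at day 14. Ccrl2 had medians of 497 and 79.9 CPM at day 5, and of 384 and 49.1 CPM at day 14. Cxcr4 went the other way at day 5, with medians of 24.3 CPM in macrophages and 67.2 CPM in GFP+ cells and a higher value in GFP+ cells of 16 of 16 animals. At day 14 its medians were 28.0 and 30.1 CPM, and it was higher in GFP+ cells of 9 of 15 animals. Ccr2 was higher in GFP+ cells of 9 of 16 animals at day 5 and of 12 of 15 at day 14. Cx3cr1 was lower in GFP+ cells of 12 of 16 and 12 of 15 animals.

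The cell types were tested by edgeR's quasi-likelihood test, in a fit that treated both libraries of an animal as independent. With Benjamini-Hochberg adjustment over all genes, 65.5% of the 10087 genes tested at day 5 differed between the cell types. At that background 3 of the 4 members tested passed. Ccr1 was lower in GFP+ than in macrophage libraries (log2 fold change -3.90, SE 0.27, adjusted p = 2.86e-14), as was Ccrl2 (log2 fold change -2.67, SE 0.28, adjusted p = 5.55e-10), and Cxcr4 was higher (log2 fold change 1.29, SE 0.16, adjusted p = 1.51e-08). Ccr2 did not pass (log2 fold change -0.12, 95% interval -1.08 to 0.85), and Cx3cr1 was below the expression filter of 5 CPM in 6 libraries. At day 14, where 64.4% of genes passed, 2 of 5 members did, Ccr1 (log2 fold change -3.37, SE 0.42, adjusted p = 3.13e-08) and Ccrl2 (log2 fold change -3.09, SE 0.26, adjusted p = 1.07e-11). These shares of members are close to or below the background and do not set the members apart from other genes. At day 14 Ccr2 was 0.54 (interval -0.07 to 1.15), Cxcr4 -0.29 (interval -0.71 to 0.13) and Cx3cr1 -1.14 on the log2 scale, none past the threshold (adjusted p = 0.129, 0.235 and 0.11). With scaling by library size or with voom, Ccr2 passed as higher in GFP+ cells at day 14 (adjusted p = 0.0133 and 0.0221). Cx3cr1 passed as lower with the animal as a block (log2 fold change -1.61, adjusted p = 0.0412) or without the GFP+ delayed replicate 4 (adjusted p = 0.0465). With scaling by library size alone the median of all genes moved from 0.05 to 0.31 at day 5 and from 0.11 to 0.48 at day 14, and Ccr2 at day 5 and Cxcr4 at day 14 changed sign (0.18 and 0.06). The sort itself used CD14, CD16/32, CD11b and F4/80 to divide the cell types but none of these receptors.

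**Figure D2:**
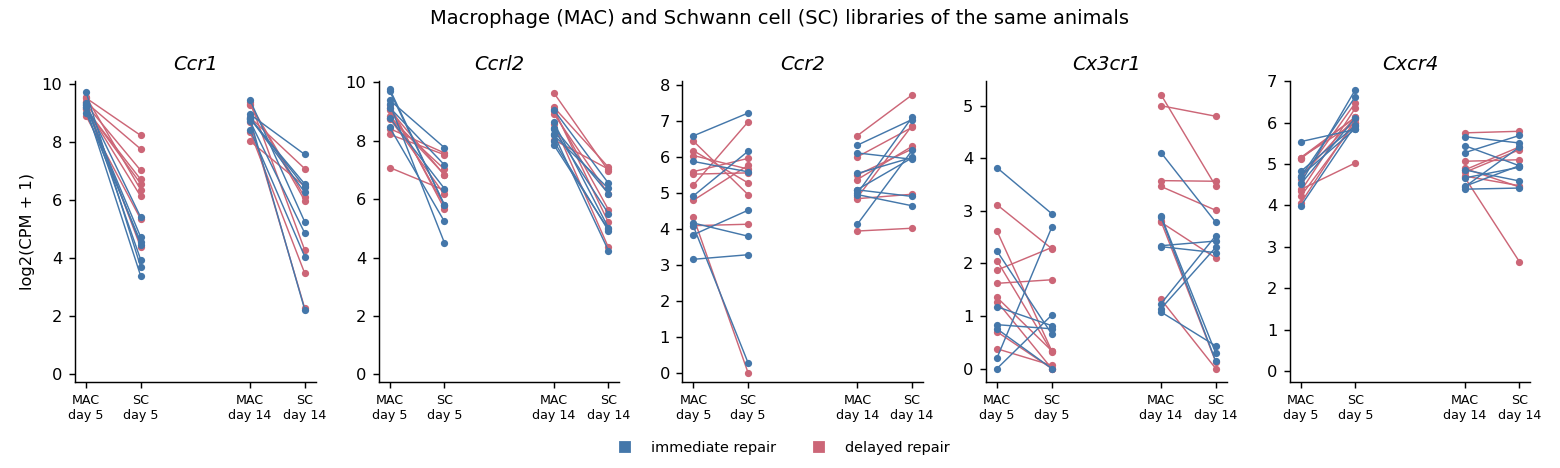
Each line joins the macrophage (MAC) and GFP+ (SC) library of one animal, on the log2(CPM + 1) axis, at day 5 and day 14, coloured by repair as blue immediate and red delayed. Lines for Ccr1 and Ccrl2 fall in every animal at both days, and lines for Cxcr4 rise in all 16 animals at day 5 and in 9 of 15 at day 14.

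Whether an 8-week delay alters the receptors of bridge macrophages was asked at each day. At day 5, Ccr1 had lowest, median and highest values of 477, 627 and 753 CPM with delayed and 506, 608 and 847 CPM with immediate repair. Ccrl2 was at 135, 435 and 599 CPM with delayed and 351, 612 and 873 CPM with immediate repair. All 9 delayed libraries lay below the mean of the immediate group for Ccrl2, 3 of them below its lowest library, and the ranges overlapped. Ccr2 was at 16.1, 45.2 and 86.4 CPM with delayed and 7.92, 23.1 and 95.6 CPM with immediate repair. Cxcr4 gave 15.6, 23.8 and 34.6 CPM and 14.8, 23.5 and 45.5 CPM. Cx3cr1 reached at most 7.67 and 13.1 CPM and was below the filter. Groups overlapped for each member.

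Of the 8409 genes tested at day 5, 0.0357% differed by repair in macrophages, and 0 of 4 members did. Ccrl2 came nearest (log2 fold change -0.64, SE 0.26, unadjusted p = 0.0245, adjusted p = 0.846) and was the 1 member under an unadjusted p of 0.05. Its mean was lower with delay in both sexes, at 328 against 518 CPM in females and 537 against 721 CPM in males. This fit held no sex term, whereas 24.6% of genes differed by sex in these libraries. Across 9 alternatives, with a sex term among them, its log2 fold change was -0.66 to -0.48 and did not pass. DESeq2 and voom also called 0 members. The interval for Ccr1 was -0.29 to 0.15 and that for Cxcr4 -0.44 to 0.26 on the log2 scale, and that for Ccr2 was wider, at -0.47 to 1.11.

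At day 14 Ccrl2 stood the other way round, at 262, 520.02 and 802 CPM with delayed and 233, 318 and 535 CPM with immediate repair. Of the 7 delayed libraries, 6 were above the mean of the immediate group and 3 above its highest library. Cx3cr1 was at 1.49, 10.04 and 36 CPM with delayed and 1.11, 4.02 and 16.2 CPM with immediate repair, with 6 of 7 delayed libraries above the immediate mean. Ccr1, at 262, 461 and 671 CPM and 344, 449.8 and 696 CPM, overlapped throughout. The values for Ccr2 were 14.4, 40.6 and 96 CPM and 16.6, 33.2 and 79.7 CPM, and those for Cxcr4 24.6, 28 and 52.8 CPM and 19.998, 26.2 and 49.5 CPM. By edgeR 0% of 8589 genes passed (0 genes, with 190 under an unadjusted p of 0.05), and DESeq2 and voom called 0 as well. Ccrl2 (0.63 on the log2 scale, SE 0.20, unadjusted p = 0.00664) and Cx3cr1 (1.54, SE 0.62, unadjusted p = 0.0238) were the 2 members under 0.05 before adjustment, and neither passed after adjustment.

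The opposite signs of Ccrl2 at the 2 days were tested as a repair-by-day interaction. The difference between the days in the effect of delay was 1.26 (SE 0.36, unadjusted p = 0.0012, adjusted p = 0.687), and it did not pass across 8949 genes, of which 0.0223% passed. None of the other members had an unadjusted p under 0.05 in this test.

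The GFP+ libraries gave the largest fitted repair difference among the members tested, in Ccr1 at day 5. The 9 delayed libraries had 19.7, 93.8 and 299 CPM (lowest, median and highest) and the 7 immediate ones 9.46, 21 and 41.6 CPM, so 7 of 9 delayed libraries were above the highest immediate one. Both sexes showed it, with means of 146 CPM in delayed and 25.4 CPM in immediate females, and of 80.4 and 17.6 CPM in males. Across 9604 genes, of which 0% passed (0 genes, with 505 under an unadjusted p of 0.05), Ccr1 ranked 4 by p (log2 fold change 2.47, SE 0.48, unadjusted p = 7.91e-05) with an adjusted p of 0.164 in edgeR. DESeq2 called 14 genes including Ccr1 (adjusted p = 0.000220), and voom called 0. Leaving out each library in turn gave log2 fold changes of 2.17 to 2.65.

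Macrophage genes were measured in these libraries beside Ccr1. Their summed level over 12 markers was 392 to 13105 CPM in delayed and 256 to 4324 CPM in immediate libraries, and 11 of 12 had the higher mean with delay. The mean log2 level of the list differed by 1.55 (exact permutation p = 0.0704, 0.387 after adjustment over the marker comparisons). Emr1, which the gate should exclude, was at 4.86, 145 and 591 CPM with delayed and 0.211, 20.3 and 136 CPM with immediate repair. With the macrophage score as a covariate, the log2 fold change of Ccr1 was 1.78. Dendritic cell markers summed to 26070.3 to 47939 and 29042 to 49570.3 CPM, with a difference of 0.0787 in mean log2 level, and the mean of the Schwann cell list was below that of the immediate group by 1.66 in mean log2 level (exact permutation p = 0.014, 0.154 adjusted). A fit with the dendritic cell score as a covariate was among the 10 alternatives other than leaving out a library. Across these the log2 fold change of Ccr1 was 1.78 to 2.49, and only DESeq2 called it. The part of the Schwann cell list in the Ccr1 difference was not tested. In bulk RNA of sorted cells, more cells of a type and more RNA per cell cannot be told apart.

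The other members in GFP+ cells at day 5 did not separate the groups. Ccr2 was at 0, 46.3 and 125 CPM with delayed and 0.211, 22 and 149 CPM with immediate repair, with 1 delayed library at 0 counts. By counting error alone, that count allows a level of up to 0.163 CPM at the shallowest depth of that group. Ccrl2 was at 49.95, 112 and 191 CPM and 21.8, 55.2 and 217 CPM. Cxcr4 was at 31.6, 68.5 and 87.9 CPM and 56, 60.3 and 109.9 CPM. Their log2 differences were 0.15 (interval -1.60 to 1.91), 0.32 (interval -0.50 to 1.15) and -0.17 (interval -0.64 to 0.31). Cx3cr1 lay at 0 to 3.93 CPM and 0 to 6.71 CPM, below the filter.

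At day 14 the groups overlapped in Ccr1 in the GFP+ libraries, at 3.85, 62.4 and 135 CPM with delayed and 3.7, 56.8 and 189.8 CPM with immediate repair (log2 fold change -0.26, interval -1.64 to 1.11). Ccr2 was at 15.2, 77.9 and 212 CPM and 24.1, 62.4 and 137 CPM, Ccrl2 at 19.4, 71.6 and 136 CPM and 17.9, 38 and 92.7 CPM. Cxcr4 was at 5.25, 33.3 and 54.3 CPM and 20.4, 30.1 and 50.5 CPM, and Cx3cr1, below the filter, at 0, 7.06 and 26.9 CPM and 0.102, 3.78 and 5.89 CPM. Groups overlapped for each member, and 0% of 10226 genes passed in edgeR (0 genes, with 373 under an unadjusted p of 0.05, 3 genes in DESeq2 and 0 in voom). No member was under an unadjusted p of 0.05 in any of the 3 tools.

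**Figure D3:**
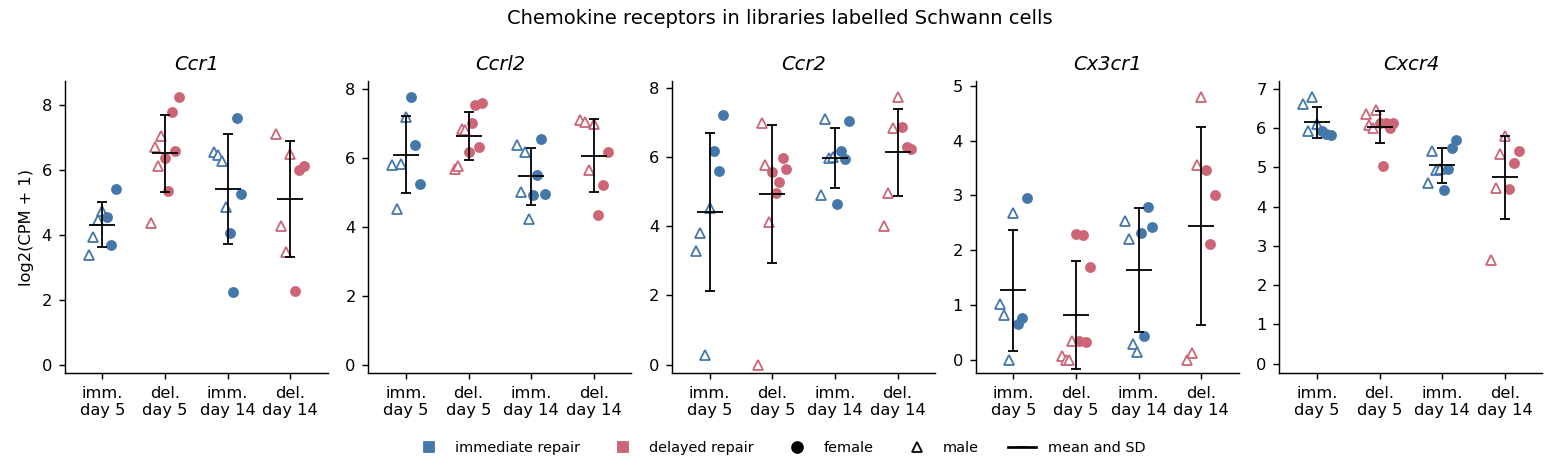
Levels of the 5 receptors in each GFP+ library (labelled Schwann cells), as log2(CPM + 1), by day and repair, with symbols as in the macrophage plot and black marks for the mean and SD. Ccr1 at day 5 is higher in 7 of 9 delayed libraries than in any immediate one, and Cxcr4 is lower at day 14 than at day 5 in both repair groups.

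The difference in the effect of delay between the cell types was tested itself, in a fit that treated both libraries of an animal as independent. The repair-by-cell-type interaction at day 5 passed for 0.0198% of 10087 genes, 2 in all, Ccr3, whose immediate GFP+ libraries were all at 0 counts, and Ccr1. The effect of delay on Ccr1 was 2.57 higher on the log2 scale in GFP+ cells than in macrophages (SE 0.48, adjusted p = 0.0326). DESeq2 called it too, but it did not pass with the animal as a block (log2 2.37, adjusted p = 0.591), with voom or with scaling by library size. It also did not pass when the delayed macrophage library 2, 3, 4, 6, 7, 8 or 9, the immediate macrophage library 1, 2, 3, 4 or 7, the delayed GFP+ library 4 or the immediate GFP+ library 2 or 5 was left out (adjusted p = 0.0531 to 0.0723). At day 14 the interaction passed for 0 of 10596 genes in edgeR, with 362 under an unadjusted p of 0.05, and for no member in DESeq2 or voom.

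In the libraries labelled distal stump, the nerve below the graft, Cxcr4 and Ccrl2 were higher after delayed repair, and the other members had positive log2 fold changes that did not pass. Cxcr4 was at 47.7, 58.9 and 144 CPM in delayed and 27.3, 42.3 and 57.5 CPM in immediate libraries. All 9 delayed libraries lay above the immediate mean and 5 above the highest immediate library. Ccrl2, a low gene here, was at 6.29, 10.1 and 19.6 CPM and 4.11, 6.79 and 11 CPM, with 8 of 9 delayed libraries above the immediate mean and 4 above its highest. Ccr2 was at 174, 292 and 377 CPM and 144, 191 and 356 CPM, with 8 of 9 above the mean. Ccr1 was at 38.5, 75 and 156 CPM and 31, 65.1 and 116 CPM. Cx3cr1 was at 27.1, 34 and 81.8 CPM and 27, 39.6 and 48.9 CPM. Ranges overlapped for each member.

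The stump difference in Ccrl2 and Ccr2 was larger in males than in females by their means. Ccrl2 had means of 15.1 CPM in delayed and 6.37 CPM in immediate males, and of 9.24 and 7.87 CPM in females. Ccr2 had means of 293 and 169 CPM in males and of 265 and 252 CPM in females. Cxcr4 was higher with delay in both sexes, at 82.5 against 40.5 CPM in males and 63.5 against 38.2 CPM in females. The repair-by-sex interaction, the effect of delay in females less that in males, was -0.97 for Ccrl2 (unadjusted p = 0.0494), -0.72 for Ccr2 (unadjusted p = 0.0363) and -0.28 for Cxcr4 (unadjusted p = 0.542). None passed after adjustment, in a test that called 0 of 12229 genes (272 under an unadjusted p of 0.05), and DESeq2 and voom called no member.

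In edgeR 26.3% of 12229 genes differed by repair in the stump, 12.8% higher and 13.5% lower with delay, and 2 of 5 members passed, both higher. The test gave Cxcr4 log2 fold change 0.88, SE 0.22, adjusted p = 0.00847, and Ccrl2 log2 fold change 0.77, SE 0.25, adjusted p = 0.032. Ccr2 missed the threshold (log2 fold change 0.46, SE 0.18, adjusted p = 0.0631), as did Ccr1 (log2 fold change 0.34, interval -0.23 to 0.92) and Cx3cr1 (0.29, interval -0.16 to 0.75). DESeq2 and voom called Ccr2 as well (adjusted p = 0.0460 and 0.0495), as did edgeR without the delayed library 8 (adjusted p = 0.0337) or the immediate library 8 (adjusted p = 0.00427). The call for Ccrl2 was lost with no expression filter (adjusted p = 0.0573), with the replicate number as a block (0.117) and without the delayed library 1, 2, 4 or 5 or the immediate library 1, 2, 3 or 7 (adjusted p = 0.0519 to 0.0794). Cxcr4 kept its call without each library.

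Cell type markers moved with repair in the stump. The Schwann cell list was lower with delay by 2.6 in mean log2 level (adjusted exact permutation p = 0.000321). The macrophage list differed by 0.459 without passing after adjustment (sums 3704 to 6292 against 1707 to 5916 CPM, 11 of 12 genes higher, exact permutation p = 0.0427, 0.0782 adjusted). Dendritic cell, T cell, endothelial and mural lists were higher by 0.562, 0.828, 0.606 and 0.443 (adjusted exact permutation p = 0.0206, 0.018, 0.000321 and 0.000321). With the macrophage score as a covariate the log2 fold change of Cxcr4 was 0.67 and passed (adjusted p = 0.0491), and that of Ccrl2 was 0.66 and did not (adjusted p = 0.108). With the dendritic cell score they were 0.81 and 0.73, near the values without it, and neither passed (adjusted p = 0.0617 and 0.145). The part of the other cell types in these differences was not tested.

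**Figure D4:**
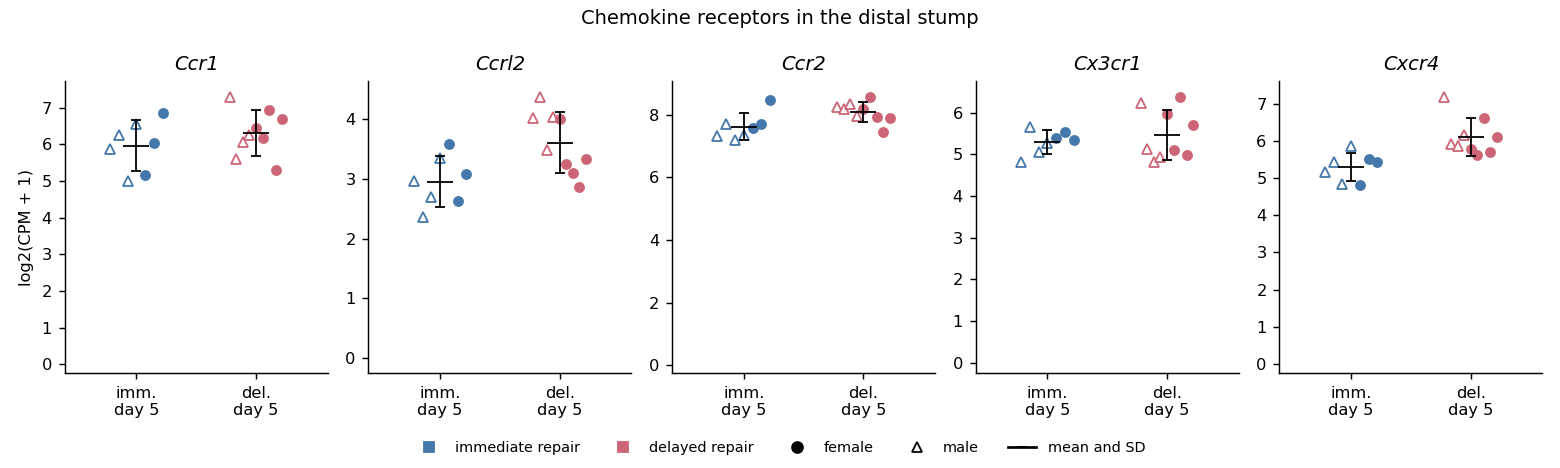
Levels of the 5 receptors in each distal stump library at day 5, as log2(CPM + 1), by repair, with filled circles for female and open triangles for male animals and black marks for the mean and SD. Cxcr4 in all 9 delayed libraries lies above the mean of the immediate libraries, and 4 of 9 delayed libraries lie above the highest immediate one for Ccrl2.

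The order of the members in the stump differed from that in sorted macrophages. Per kb of exon, delayed and immediate stump libraries held 41 ± 8.67 and 30.3 ± 10.5 CPM per kb for Ccr2, 39.8 ± 16.9 and 21.8 ± 5.91 for Cxcr4, and 30.01 ± 13.1 and 23.9 ± 10.7 for Ccr1. Cx3cr1 held 10.4 ± 4.62 and 8.61 ± 1.64, and Ccrl2 was lowest at 4.55 ± 1.75 and 2.7 ± 0.925. Per kb, Ccr2 exceeded Cxcr4 in 4 of 9 delayed libraries, so those neighbours did not differ in order on that scale, which rests on the exon lengths used. In the GFP+ libraries at day 5 Cxcr4, Ccrl2 and Ccr1 held 36.8 ± 8.57, 42 ± 20.01 and 41.2 ± 31.3 with delayed repair and 40.2 ± 12.1, 33.6 ± 26.7 and 7.39 ± 3.82 with immediate repair, and Cx3cr1 was lowest in all but 1 of the 16 libraries.

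**Figure D5:**
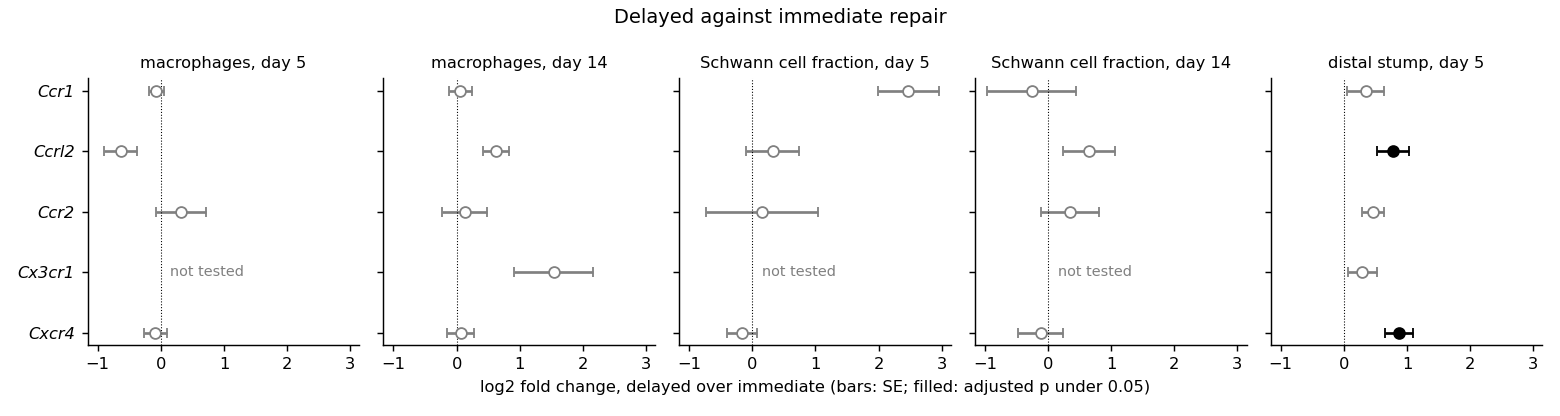
Delayed against immediate log2 fold change of each receptor in macrophages, GFP+ cells and distal stump, with error bars of 1 SE from edgeR; filled symbols passed an adjusted p of 0.05 and "not tested" marks members below the expression filter. Filled symbols appear for Cxcr4 and Ccrl2 in the stump, and the largest effect, 2.47 for Ccr1 in GFP+ cells at day 5, is open.

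Change with time after repair was read in each repair group. In macrophages after immediate repair, Ccr1 went from 506, 608 and 847 CPM at day 5 to 344, 449.8 and 696 CPM at day 14, and 7 of 8 day 14 libraries lay below the lowest of day 5. Ccrl2 went from 351, 612 and 873 to 233, 318 and 535 CPM. Both passed, where 11.8% of 8949 genes did (5.34% higher and 6.49% lower), as 2 of 5 members: Ccr1 fell by 0.573 (SE 0.15, adjusted p = 0.0108) and Ccrl2 by 1.08 (SE 0.25, adjusted p = 0.00415) on the log2 scale. Scaling by library size took Ccr1 out (adjusted p = 0.0724). After delayed repair 9% of genes passed (4.48% higher and 4.51% lower) and 1 of 5 members. This was Cx3cr1, which was at 5 CPM or more in 2 of 9 delayed and 1 of 8 immediate libraries at day 5. At day 14 it reached that level in 6 of 7 and 3 of 8, so it passed the filter through the later day, where it was high. It rose after delayed repair from 0.297, 2.08 and 7.67 to 1.49, 10.04 and 36 CPM (log2 fold change 2.38, SE 0.73, adjusted p = 0.0366). That call was lost without the day 5 delayed library 1, 2, 3, 4, 5 or 9 (adjusted p = 0.0509 to 0.0641), the day 14 delayed library 4 (0.085) or 6 (0.109), in voom (0.0582) and with no expression filter (0.0516). Ccr1 was -0.44 (SE 0.15, adjusted p = 0.0702) and passed in DESeq2 (adjusted p = 0.0483) or without the delayed day 5 library 6 (0.0497) or day 14 library 2 (0.0317). Ccrl2 in delayed macrophages was 0.18 (interval -0.31 to 0.68). Ccr2 and Cxcr4 had intervals of -0.65 to 0.92 and -0.26 to 0.52 after immediate repair and -0.85 to 0.73 and -0.11 to 0.67 after delayed repair. Marker lists had other levels at the later day in these libraries, which was not tested. Dendritic cell sums were 1848 to 5199.6 CPM at day 5 and 7720.4 to 19945 CPM at day 14 with delayed and 1099 to 4222 and 8519.8 to 16201 CPM with immediate repair, and the days did not overlap. The monocyte list had mean log2 levels of 4.37 and 3.44 with delayed and 4.19 and 3.37 with immediate repair, the neutrophil list of 2.82 and 1.99 and of 2.80 and 2.09, and the fibroblast list of 1.72 and 3.02 and of 1.75 and 3.40. Their part in the changes of Ccr1, Ccrl2 and Cx3cr1 was not tested.

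In GFP+ cells Cxcr4 fell between the days in both repair groups. With immediate repair it was at 56, 60.3 and 109.9 CPM at day 5 and 20.4, 30.1 and 50.5 CPM at day 14, and all 8 day 14 libraries were below the lowest of day 5. With delayed repair it was at 31.6, 68.5 and 87.9 CPM and 5.25, 33.3 and 54.3 CPM, with 3 of 7 below the lowest of day 5 and all 7 below its mean. The log2 fold change was -1.38 (SE 0.32, adjusted p = 0.00771) with immediate repair, where 7.28% of 10923 genes passed, and -1.32 (SE 0.32, adjusted p = 0.0131) with delayed repair, where 6.73% did. Cxcr4 was the 1 member of 5 to pass in each, and the call held without each library in turn. Dendritic cell marker sums were 26070.3 to 47939 CPM at day 5 and 23842 to 48546 CPM at day 14 in delayed libraries, and 29042 to 49570.3 and 27291 to 48652 CPM in immediate ones. The mean log2 level of that list was 9.19 at day 5 and 9.30 at day 14 with delayed and 9.11 and 9.28 with immediate repair. Fibroblast sums were 14.7 to 3238 and 1887 to 19894 CPM at days 5 and 14 with delayed and 235 to 8898 and 892 to 16981 CPM with immediate repair. The mean log2 level of the Schwann cell list was 3.07 and 6.17 with delayed and 4.74 and 5.30 with immediate repair. Their part in the fall of Cxcr4 was not tested. Ccr1 gave estimates of opposite sign, 1.41 with immediate repair (unadjusted p = 0.0345) and -1.32 with delayed repair (unadjusted p = 0.0433), and neither passed after adjustment. The interaction was -2.73 (SE 0.89, unadjusted p = 0.00462, adjusted p = 0.761), in a test that called 0 of 10923 genes in edgeR (524 under an unadjusted p of 0.05), 9 in DESeq2 and 0 in voom. The macrophage list in these libraries had mean log2 levels of 5.36 at day 5 and 6.01 at day 14 with immediate and 6.91 and 6.34 with delayed repair. Neutrophil sums were 14.02 to 62.4 and 12.8 to 17596 CPM with immediate and 11.6 to 207 and 15.5 to 71.2 CPM with delayed repair, so that high neutrophil sums were found in immediate day 14 libraries. Without single libraries the Ccr1 difference was 1.02 to 1.60 with immediate repair and the interaction -3.10 to -2.33. The part of these lists was not tested.

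Both sexes were present in every group, and the sexes were compared after the values had been seen. In day 5 macrophages Ccr2 was higher in females and Ccrl2 lower. The 9 females had 29.3, 58 and 95.6 CPM (lowest, median and highest) and the 8 males 7.92, 16.5 and 36.3 CPM. The split held inside each repair group, with means of 63.1 CPM in 5 delayed females against 24.6 CPM in 4 delayed males, and of 57.0 against 13.5 CPM in 4 and 4 immediate animals, and the ranges did not overlap within either group. Ccrl2 went the other way, at 135, 434 and 673 CPM in females and 460.2, 581 and 873 CPM in males. With repair in the model, 24.6% of 8409 genes differed by sex, and 2 of 4 members did, Ccr2 (log2 fold change 1.56, SE 0.22, adjusted p = 0.000142) and Ccrl2 (log2 fold change -0.73, SE 0.21, adjusted p = 0.0152). Ccr1 (interval -0.32 to 0.12) and Cxcr4 (interval -0.14 to 0.53) did not pass. Cx3cr1, below the filter, was at 0.783, 3.15 and 13.1 CPM in females and 0, 0.654 and 1.55 CPM in males.

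At day 14 the sexes overlapped in Ccr2, at 16.6, 40.6 and 79.7 CPM in 7 females and 14.4, 33.2 and 96 CPM in 8 males (log2 fold change -0.05, interval -0.75 to 0.66), and 0.0466% of genes passed. The change of the sex difference between the days was -1.59 for Ccr2 (SE 0.43, unadjusted p = 0.000986), just short of the threshold in edgeR (adjusted p = 0.0528) where 1.44% of genes passed. DESeq2 (adjusted p = 0.0103), voom (0.0188) and scaling by library size (0.0442) called it. Dendritic cell marker sums in day 5 macrophages were 1710 to 5200 CPM in females and 1099 to 3622 CPM in males, and monocyte marker sums 293 to 1142 and 362 to 567 CPM. Their part was not tested, and sex and any order of handling cannot be told apart from the labels. In GFP+ cells at day 5, where 6.51% of genes passed, 0 of 4 members passed in edgeR and 1 was under an unadjusted p of 0.05. This was Cxcr4, at 31.6, 61.6 and 69 CPM in females and 59.8, 74.3 and 109.9 CPM in males (log2 fold change -0.65, SE 0.20, adjusted p = 0.0656), and DESeq2 called it while voom did not. Monocyte marker sums in those libraries were 277 to 824 CPM in females and 20.1 to 247 CPM in males, without overlap, macrophage sums had medians of 3662 and 996 CPM, and their part was not tested. Ccr2 in those cells was 1.29 (interval -0.37 to 2.94). No member passed between the sexes in GFP+ cells at day 14, where 0.0391% of genes did, or in the stump, where 0.0736% did (Ccr2 0.23, interval -0.08 to 0.54).

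The ligands of these receptors were read from a list of 12. In macrophages between days 5 and 14, 7 of 10 tested ligands fell with immediate repair, where 6.49% of all genes did (median log2 fold change -1.11 against 0.00589 for all genes) and 5 of 10 with delayed repair, where 4.51% did (median -0.66), and none rose. Ccl2 and Ccl7, the ligands of Ccr2, fell by 1.67 and 1.58 with immediate and by 1.14 and 1.23 with delayed repair on the log2 scale. Ccl3 and Ccl4 fell in GFP+ cells too, by 2.07 and 1.93 with immediate and by 1.55 and 1.88 with delayed repair, as 2 of 12 ligands in each, where 7.28% and 6.73% of all genes passed. Between the cell types, Ccl5 was higher in GFP+ cells by 5.22 at day 5. Cx3cl1, the Cx3cr1 ligand, and Rarres2 were called higher too, both low in macrophages. Cx3cl1 was at 10.8 to 105 CPM in the GFP+ libraries of day 5 and at most 1.05 CPM in macrophages, so it passed the filter through the GFP+ libraries alone. At that day 8 of 12 ligands were lower, among them Ccl2 (-3.24) and Ccl6 (-3.41). At day 14, 3 were higher and 7 lower. These counts stand beside 65.5% and 64.4% of all genes called at days 5 and 14.

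In the stump 2 of 11 ligands passed between repair groups, both higher with delay, a share below the 26.3% of all genes that passed and near the 12.8% that were higher. Cxcl12, the ligand of Cxcr4, was at 266, 435 and 794 CPM with delayed and 125, 254 and 537 CPM with immediate repair (log2 fold change 0.91, adjusted p = 0.0237). Cx3cl1 was higher by 0.53 (adjusted p = 0.0379). Of 10 other chemokine and chemerin receptors tested, 4 were higher and 0 lower, among them Cmklr1, the signalling receptor for chemerin (0.74), Cxcr6 (0.67, a gene that overlaps Fyco1) and Xcr1, a receptor of cross-presenting dendritic cells (0.51). Of 26 genes that carry the receptor signal, such as G protein subunits, kinases and regulators, 15 were higher, among them Pik3cg (0.83) and Jak2 (0.61), and 2 were lower, Rgs16 (-1.41) and Gng2 (-0.61). Of the 8 tested genes in a list of 11 on chromosome 9, 5 were higher and 0 lower, with a median of 0.52 against 0.02 for all genes. That list spans 13128 kb, since it holds Ccrl2 and Ltf beside the genes around Ccr1 and Ccr2, and it shares receptors with the list of other receptors. Against these counts, 12.8% of all genes were higher and 13.5% lower, and the dendritic cell and T cell lists were higher in the same libraries, as given above. Their part in the counts was not tested. In sorted macrophages and GFP+ cells none of the tested ligands, other receptors, signalling genes or listed chromosome 9 genes passed between repair groups at either day in edgeR.

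Of the other receptors of the family, 5 of 10 tested at day 5 were higher in GFP+ cells and 2 lower, which together is near the 65.5% of all genes that differed between the cell types. Ccr7, which guides dendritic cells to lymph nodes, was higher by 8.22. Ccr9, at 17.3 to 337 CPM in GFP+ and at most 3.53 CPM in macrophage libraries, passed the filter through the GFP+ libraries alone. At day 14, where 64.4% of genes differed, 7 were higher and 1 lower. Of the signalling genes 12 were higher and 4 lower at day 5, and 9 and 5 at day 14. Between days, 11.8% of all genes passed in immediate and 9% in delayed macrophages, and 7.28% and 6.73% in immediate and delayed GFP+ cells. In macrophages 1 of 6 other receptors passed in each repair group, Cxcr7 (also called Ackr3), a scavenger of Cxcl12, which was lower at day 14 and is a low gene in macrophages. In GFP+ cells Cxcr5 fell by 1.42 with immediate repair. Of the signalling genes between days, 1 of 24 rose and 1 fell in immediate macrophages, 2 rose and 1 fell in delayed macrophages, and 0 of 26 rose with 6 and 4 lower in immediate and delayed GFP+ cells.

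Genes whose levels rose and fell with a member from library to library were listed after the group means had been removed. Over the 32 macrophage libraries Ccr2 was followed most closely by Tmem86a (Pearson r = 0.89), Clec4a3 (0.89) and Coro1a (0.89). Cx3cr1 was followed by Rasgrp4 (0.85), Cxcr4 by Fosl2 (0.83), Ccr1 by Ddx27 (0.72) and Ccrl2 by Smarca5 (0.65). Over the 31 GFP+ libraries the closest genes were Plac8 for Ccr2 (0.86), Gm14548 for Cxcr4 (0.78), Ocstamp for Ccr1 (0.74), Cxcl2 for Ccrl2 (0.73) and Vmp1 for Cx3cr1 (0.68). The libraries share animals, sexes and depth, none of which was removed, so these values describe the libraries only.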

How the data were processed

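The distal stump and the sorted bridge cells were profiled by RNA sequencing. The authors trimmed reads with cutadapt 1.8 and aligned them with TopHat2 2.1.1 to mm10 with UCSC gene models, and their notes also list Cufflinks 2.2.1 and Cuffnorm. The deposited tables hold estimated counts per gene, not normalized, of which about 1% were not whole in each table. The program that wrote them is not given in the sources used here. Values were rounded to whole counts. CPM is per library total. Each table has 23361 genes, and each of the 79 columns matched 1 sample.

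Groups were compared with edgeR 4.0.16 (R 4.3.3) by its quasi-likelihood test with TMM scaling. Genes with 5 CPM or more in 6 or more of the libraries compared were tested, with Benjamini-Hochberg adjustment over them and a threshold of 0.05. Standard errors are the size of the log2 fold change over the square root of F. Repair was tested within each cell type and day, day within each repair group, cell type within each day, and sex with repair in the model. Marker lists were compared as mean log2(CPM + 1) by an exact two-sided permutation test. The scripts were tested on simulated data. Promoters came from RefSeq (GRCm38.p6) and exon lengths from GENCODE M21. DESeq2 1.42.0, voom in limma 3.58.1, library size scaling, other filters, covariates for sex and marker scores, blocks and leaving out each library were the alternatives.

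The members and gene lists were chosen with earlier results of these data known. The genes named beside the members were up to 4 of each gene list with the smallest p in a comparison, and the 3 genes most like each member. The lists hold 1 further gene that is counted with them but not reported here. No library pair of 3081 held identical values. Libraries of a group came from separate animals. Replicate numbers were not treated as pairs across groups in the main fits. Correlations of deviations by replicate number were -0.283 to 0.502, and in no comparison over 0.1 in every pair. Between delayed and immediate macrophages they were over 0.1 in 7 of 8 pairs at day 5 (median 0.254) and 6 of 7 at day 14 (median 0.256). Lower numbers are male and higher ones female in every group, and sex was not removed from these values. Macrophage and GFP+ libraries of the same animal are paired by design, which the main fit did not use. Depth was the total counts per library, and intervals and floors for single libraries cover counting error only.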

Additional observations from a re-analysis of the deposited data

Results flagged for a closer look

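Of 50 groups of 4 to 10 libraries checked for a single library far from the rest, 7 were flagged, and chance flags about 1 in 20. Among macrophages these were Ccr1 in the immediate day 5 replicate 7, the highest at 847.5 CPM, Ccrl2 in the delayed day 5 replicate 8, the lowest at 134.7 CPM, and Cxcr4 in the delayed day 14 replicate 4, the highest at 52.8 CPM. Among GFP+ libraries they were Ccr2 in the delayed day 5 replicate 1, the lowest at 0 CPM, Cxcr4 in the delayed day 5 replicate 6, the lowest at 31.6 CPM, and Cxcr4 in the delayed day 14 replicate 1, the lowest at 5.25 CPM. In the distal stump Ccr2 was far above the rest in the immediate replicate 8, at 355.7 CPM, and without that library the delayed stump was higher in Ccr2 at an adjusted p of 0.00427 in edgeR.

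The effect of delay on Ccr1 at day 5 differed between GFP+ cells and macrophages by 2.57 on the log2 scale, by a test of the difference itself. It did not pass with the animal as a block, which is the fit that uses the shared animals.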

How the results depend on the processing

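Across the alternatives other than leaving out a library, the number of members called was within 1.5 times that reported in 160 of 177 results, and 434 of 470 single-member results kept their direction and side of the threshold. Leaving out each library in turn kept 518 of 552 and 1383 of 1451. The number of members called moved as follows. By repair in GFP+ cells at day 5 it was 1 instead of 0 in DESeq2, and by sex there 1 instead of 0 in DESeq2 and 0 to 1 without single libraries. In the stump it was 1 instead of 2, with Ccrl2 lost, with no filter, with the replicate block and with the macrophage score, 0 with the dendritic cell score, and 1 to 3 without single libraries. By day in macrophages it was 1 instead of 2 with library size scaling after immediate repair, and after delayed repair 2 in DESeq2 and 0 with no filter and with voom instead of 1, and 0 to 2 without single libraries. By day in delayed GFP+ cells it was 2 instead of 1 in voom, through Ccrl2 (adjusted p = 0.0313). The sex-by-day test in macrophages called 1 instead of 0 in DESeq2, voom and library size scaling, and the day 5 repair-by-cell-type test 0 instead of 1 with library size scaling, voom and the animal as a replicate block, and 0 to 1 without single libraries.

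Directions reversed for small differences only, each with an adjusted p above the threshold. Library size scaling turned Ccr1 by repair in day 5 macrophages (0.0152), Ccr2 by sex in day 14 macrophages (0.0160), and between cell types Ccr2 at day 5 (0.18) and Cxcr4 at day 14 (0.0638). The replicate block turned Ccr1 by repair in day 14 macrophages (-0.0415), Cxcr4 by repair in day 5 GFP+ cells (0.0133) and Ccr2 by day in delayed macrophages (0.0279), where a sex term gave 0.25. With the macrophage score, Ccr2, Ccrl2 and Cxcr4 by repair in day 5 GFP+ cells were -0.0837, -0.24 and 0.0632. With voom, Ccr2 by repair in day 5 GFP+ cells was -0.18, Ccr2 by sex in day 14 GFP+ cells 0.32 and Cxcr4 by day in immediate macrophages -0.0101. Without single libraries, the following ranges crossed 0. By repair, Ccr1 gave -0.61 to 0.15 in day 14 GFP+ cells and -0.0338 to 0.17 in day 14 macrophages, Ccr2 -0.17 to 0.79 in day 5 GFP+ cells and -0.18 to 0.31 in day 14 macrophages, and Cxcr4 -0.28 to 0.0861 and -0.25 to 0.0405 in day 14 and day 5 GFP+ cells and -0.12 to 0.18 and -0.17 to 0.0301 in day 14 and day 5 macrophages. By sex, Ccr2 gave -0.26 to 0.32 in day 14 GFP+ cells and -0.21 to 0.21 in day 14 macrophages. By day, Ccr2 gave -0.36 to 0.10 in delayed and -0.0506 to 0.47 in immediate macrophages, and between cell types at day 5 -0.36 to 0.0468. The causes were not tested.

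Replicate numbers were not treated as pairs in the main fits, and in no comparison did every library correlate best with its own replicate number. Between delayed and immediate macrophages at day 14, 5 of 7 did. With the replicate block the stump calls went from 2 to 1, with the animal as the block the cell type calls at day 14 went from 2 to 3 and the repair-by-cell-type call was lost, and no other count of members called changed. The tests by sex and by sex and day, with their alternatives, were chosen after seeing the data. Cx3cr1 was at 3 counts or fewer in 7 of 31 GFP+ libraries and in 1 of 32 macrophage libraries.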
